A study of Mus musculus with 20 samples.

Results

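Small leucine-rich proteoglycans (SLRPs) are matrix proteins built from a core of leucine-rich repeats, most of which carry chondroitin, dermatan or keratan sulfate chains. They bind collagen and set the spacing and width of collagen fibrils, and several of them also bind growth factors of the TGF-β family. In the uterus they are made mainly by stromal fibroblasts and smooth muscle cells, and the matrix they lie in swells and is rebuilt when estrogen acts on the tissue. The 8 genes described here are Dcn (decorin), Bgn (biglycan), Lum (lumican), Fmod (fibromodulin), Prelp (proline and arginine rich end leucine rich repeat protein), Ogn (osteoglycin), Omd (osteomodulin) and Aspn (asporin). Their probes were found by gene name in the scanner files, which gave 11 of the 41174 probes that were not controls, or 8 of 27962 gene names.

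Uterine RNA was measured on 20 arrays with 1 uterus each, from ovariectomized C57bl6/J mice of at least 10 weeks that had rested for 10 to 14 days after surgery. Mice received 1 subcutaneous injection of 100 µl sesame oil (vehicle, 3 arrays, labelled 24 h), 250 ng estradiol (E2), 750 µg bisphenol A (BPA) or 750 µg HPTE, which the body forms from the pesticide methoxychlor. E2, BPA and HPTE uteri were collected after 2 h or 24 h, with 3 arrays in each of these groups except E2 24 h, which had 2 arrays, replicates 2 and 3. The doses of BPA and HPTE were equal and differed from that of E2, and the 2 h groups could be set only against the 24 h vehicle arrays. Each array held RNA of a whole uterus, so that fewer cells of a type and less RNA per cell cannot be told apart.

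Levels below are the scanner's processed intensity as percent of the 75th percentile of the same array. Changes are log2 differences of group means with their SE, and a gene was called where the limma p-value, adjusted over 32460 probes, was under 0.05. Where a gene had more than 1 probe, its probe was chosen by the highest mean log2 intensity over the 20 arrays, and no comparison between groups entered that choice. That mean was 18.2 against 7.97 for the Dcn probes, 10.3 against 4.2 for the Bgn probes and 14.9 against 7.15 for the Prelp probes, values that served only to choose. All 11 probes passed the filter on dim probes, and 10 of them were well above background on 20 of 20 arrays.

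The arrays carried marks of other tissues that touch these comparisons. Transcripts of maturing sperm cells summed to 3498% to 11820% on the vehicle arrays and to at most 1438% on any treated array, and 11 of 11 tested were lower in each of the 6 treated groups. Pancreatic transcripts summed to 404300% and 27350% on E2 2 h replicates 2 and 3 and to 801.8% and 2105% on the E2 24 h arrays, against at most 128.1% elsewhere. Leukocyte markers reached 13120% on BPA 2 h replicate 1, against at most 3033% on any other array. All 9 stromal, 8 smooth muscle and 10 epithelial markers and all 8 transcripts that mark the uterus were well above background on every array. The part of these other tissues in the changes below was not tested. Of 9 genes known to respond early to estrogen, 5, 5 and 4 were higher at 2 h after E2, BPA and HPTE. In these comparisons 28.1%, 49.4% and 48.1% of all probes were called in either direction, and 39.5%, 39% and 41.4% of those calls were higher.

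The probe sequences are shown because the results for Dcn and Bgn depend on which probe is read. All positions are on the mouse assembly mm7, 5′ to 3′ on the gene's strand, in lower case.
Dcn, brightest probe, chr10:97080086-97080145, plus strand: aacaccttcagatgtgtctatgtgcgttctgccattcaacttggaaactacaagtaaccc
Dcn, other probe, chr10:97043200-97043259, plus strand: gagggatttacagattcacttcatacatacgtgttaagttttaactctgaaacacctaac
Bgn, brightest probe, chrX:68879864-68879923, plus strand: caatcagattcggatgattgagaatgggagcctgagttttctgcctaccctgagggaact
Bgn, other probe, chrX:68878335-68878394, plus strand: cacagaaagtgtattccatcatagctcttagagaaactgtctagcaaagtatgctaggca
The brightest Dcn and Bgn probes were designed on RefSeq messenger sequences of these genes, and the other probes on cDNA clones that the array names Dcn and Bgn. The Dcn probes start 36886 bases apart and the Bgn probes 1529 bases apart. Whether the clone probes lie in an exon or an intron was not determined here. Both Prelp probes carry the RefSeq accession of Prelp and start 4687 bases apart on the minus strand of chromosome 1, at chr1:133800142-133800201 for the brighter and chr1:133804829-133804888 for the other. The remaining genes had 1 probe each, Lum at chr10:97135063-97135122, Fmod at chr1:133937206-133937265, Aspn at chr13:49050987-49051046, Omd at chr13:49076355-49076414 and Ogn at chr13:49108057-49108116, all on the plus strand.

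**Figure D1:**
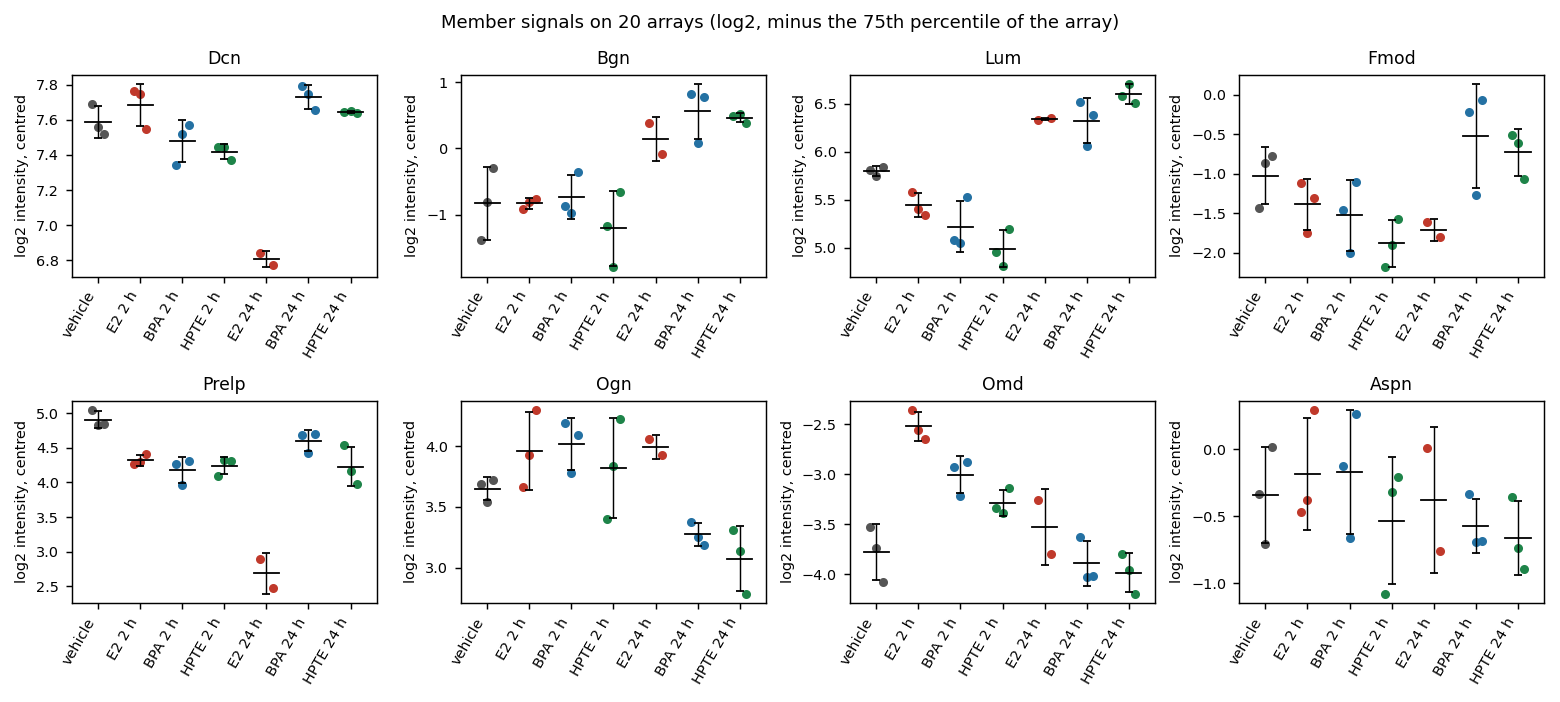
Signal of the brightest probe of each gene on 20 arrays, as log2 processed intensity minus the 75th percentile of the array, with each gene on its own axis. Points are arrays, horizontal bars group means and vertical bars SD over 3 arrays (2 for E2 24 h). The E2 24 h arrays are the lowest of all for Dcn and Prelp, and the 3 E2 2 h arrays are the highest of all for Omd.

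Decorin, which limits the sideways growth of collagen fibrils and binds TGF-β in the matrix, was lower 24 h after E2 than in any other group. The vehicle arrays stood at 20650%, 18830% and 18340%, and the E2 24 h arrays at 11470% and 10950%. BPA 24 h arrays lay at 22130%, 21460% and 20190%, and HPTE 24 h arrays at 20030%, 20060% and 19960%, within or close above the vehicle range. The fall at 24 h of E2 was -0.78 ± 0.09, or 1.72-fold (adjusted p = 1.73e-06), and the arrays did not overlap. At 24 h, Dcn differed from vehicle by 0.14 ± 0.08 after BPA and by 0.06 ± 0.08 after HPTE, neither of which passed the test (adjusted p = 0.252 and 0.619). At 2 h the differences were 0.10 ± 0.08 (E2), -0.11 ± 0.08 (BPA) and -0.17 ± 0.08 (HPTE), and none passed (adjusted p from 0.0874 to 0.402). The interval of the E2 2 h difference ran from -0.07 to 0.26.

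The clone probe named Dcn gave another picture. It stood at 88.72%, 71.88% and 55.7% on the vehicle arrays and at 5.591%, 4.6% and 4.424% on the E2 2 h arrays. BPA 2 h arrays lay at 5.559%, 3.761% and 20.82%, and HPTE 2 h arrays at 1.528%, 1.796% and 2.862%. All 9 of these 2 h arrays lay below all vehicle arrays. The changes were -3.87 ± 0.44 after E2 (adjusted p = 1.38e-05), -3.22 ± 0.44 after BPA (adjusted p = 3.41e-05) and -5.16 ± 0.44 after HPTE (adjusted p = 4.25e-07). By 24 h the BPA arrays were back at 56.86% to 69.87% (-0.19 ± 0.44, adjusted p = 0.83), the HPTE arrays lay at 28.76% to 42.9% (-0.95 ± 0.44, adjusted p = 0.113), and the E2 arrays at 15.68% and 12.64% were still lower than vehicle (-2.33 ± 0.50, adjusted p = 0.000752). Slides, here and below, were inferred from scan time. Arrays of a slide share its vehicle array. Where no array overlaps vehicle, the side taken within slides is fixed and adds no support, so sizes are given. Within a slide, the clone probe was below the vehicle array in 5 arrays at 2 h by 2.09 to 5.63. The brightest probe differed by -0.24 to 0.05. Over the 20 arrays the Dcn probes had a Pearson r of 0.27. A mean over both probes therefore gives Dcn a change of -1.89 at 2 h of E2, where the brightest probe alone gives 0.10. Both probes fell 24 h after E2.

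Biglycan, the closest relative of decorin and likewise a carrier of chondroitin or dermatan sulfate, was higher than vehicle at 24 h with every compound. The vehicle arrays ranged widely, at 38.22%, 56.86% and 81.47%, whereas the 24 h arrays lay at 130.2% and 93.88% (E2), 176.3%, 105.9% and 172% (BPA) and 139.7%, 143.6% and 130.4% (HPTE). No 24 h array overlapped the vehicle arrays. The rise was 0.98 ± 0.33 with E2 (adjusted p = 0.0182), 1.39 ± 0.30 with BPA (adjusted p = 0.00674) and 1.29 ± 0.30 with HPTE (adjusted p = 0.00401). The E2 call was lost without vehicle replicate 1 (0.70, adjusted p = 0.0834) or without E2 24 h replicate 2 (0.74, adjusted p = 0.155), and with slide as a fixed block none of the 3 calls held (adjusted p from 0.0883 to 0.16). Within slides, Bgn was above the vehicle array of its slide by 0.20 to 1.11 in 4 arrays at 24 h. That side was fixed by the lack of overlap. With scaling to spike-in probes the 3 calls were lost as well (adjusted p from 0.0644 to 0.0844). Smooth muscle markers summed to 65500% to 70540% (E2), 49760% to 57650% (BPA) and 60180% to 69270% (HPTE) at 24 h, against 41640% to 46630% in vehicle, and stromal markers were above vehicle after BPA and HPTE. Their part in the rise of Bgn was not tested. At 2 h the Bgn arrays ran from 28.77% to 77.94% over the 3 compounds and overlapped the vehicle arrays, and no change was called.

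The other Bgn probe lay near the background, well above it on 13 of 20 arrays. It was at 2.382%, 2.276% and 1.364% on the vehicle arrays and at 0.622%, 0.5263% and 0.5879% on the E2 2 h arrays, none of which was well above background. The signal was 2.18-fold lower than in vehicle if the E2 2 h level is set at the dimmest probe that each array measured well above background. The measured value was used where it was higher. That level was not specific to this probe, so the value is no strict bound. The limma call (adjusted p = 0.0299) used the measured values and does not test this figure. After BPA at 2 h it was at 0.2467%, 0.4153% and 2.228%, and after HPTE at 0.4591%, 0.3775% and 0.6671%, and 1 of 3 arrays in each group measured it well above background, so no size of change is given for them. The probe passed the filter on dim probes through vehicle and the 24 h groups, where it is brighter. The E2 call therefore gives no independent support for a fall at 2 h. The E2 call was lost without vehicle replicate 1 or 2 or any 1 of the E2 2 h replicates (adjusted p from 0.0554 to 0.093). At 24 h it differed from vehicle by -0.14 to 0.14 and no change was called, so the 24 h rise of Bgn was seen with the brightest probe only. The probes had r = 0.63 over 20 arrays, and their mean over both left none of the 24 h changes called (adjusted p from 0.232 to 0.243).

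**Figure D2:**
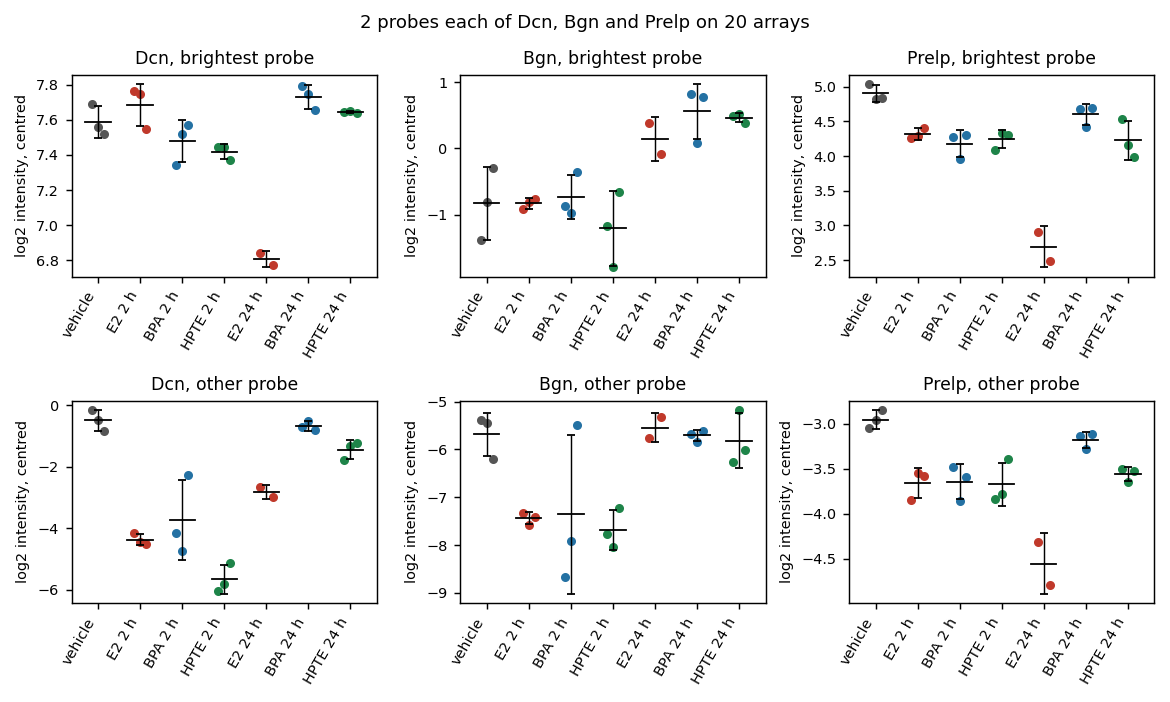
Both probes of Dcn, Bgn and Prelp on 20 arrays, as centred log2 intensity, each on its own axis with arrays as points, group means as horizontal bars and SD as vertical bars. The other Dcn probe drops at 2 h in all 3 compounds while the brightest hardly moves, and the Prelp probes move alike (r = 0.93).

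Lumican, a keratan sulfate proteoglycan that binds fibrillar collagen, stood on opposite sides of the vehicle arrays at the 2 times. Vehicle arrays were at 5585%, 5365% and 5738%. At 2 h the arrays were at 4778%, 4212% and 4047% (E2), 3386%, 3298% and 4604% (BPA) and 3107%, 2806% and 3665% (HPTE). All 9 arrays at 2 h lay below vehicle. Lum fell by 0.58 after BPA (SE 0.14, adjusted p = 0.00287) and by 0.81 after HPTE (SE 0.14, adjusted p = 0.000199), and the difference after E2 was -0.36 ± 0.14 (adjusted p = 0.0673). At 24 h the arrays were at 8049% and 8136% (E2), 9177%, 6679% and 8357% (BPA) and 9579%, 10450% and 9109% (HPTE), all 8 above vehicle. The rises were 0.54 ± 0.15 (adjusted p = 0.0066), 0.52 ± 0.14 (adjusted p = 0.022) and 0.80 ± 0.14 (adjusted p = 0.000543). Within slides Lum differed from vehicle by -0.99 to -0.28 at 2 h and by 0.32 to 0.68 at 24 h. These sides were fixed by the lack of overlap. The E2 24 h value was 0.22 under quantile normalization and no longer called (adjusted p = 0.25). The BPA 24 h call was lost without vehicle replicate 1 or 2 or BPA 24 h replicate 1 or 3 (adjusted p from 0.0648 to 0.114). Beside the fall at 2 h, the summed level of 9 stromal markers was 10080% to 13050% after BPA and 11100% to 12390% after HPTE, against 14070% to 16250% in vehicle. In each, 7 of 9 were lower, where 49.4% (BPA) and 48.1% (HPTE) of all probes were called in either direction. Beside the rise at 24 h, the stromal sum was 16940% to 18060% after BPA and 18140% to 19830% after HPTE, above every vehicle array, and overlapped vehicle after E2. Smooth muscle markers were above vehicle at 24 h in all 3 groups. Their part in the results for Lum was not tested. With scaling to spike-in probes none of the Lum calls against vehicle held at either time (adjusted p from 0.152 to 0.757), and with slide as a fixed block those at E2 24 h and BPA 24 h were lost (adjusted p = 0.07 and 0.138).

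Fibromodulin, the nearest relative of lumican, varied more between replicates. Vehicle arrays were at 36.92%, 55.14% and 58.41%, and HPTE 2 h arrays at 22.17%, 26.84% and 33.68%, all lower. HPTE 2 h was the single group that differed from vehicle past the threshold (-0.86 ± 0.31, adjusted p = 0.0335), and this call was lost without vehicle replicate 2 or 3 or HPTE 2 h replicate 1 or 2 (adjusted p from 0.0727 to 0.12). Scaling to spike-in probes lost it as well, and 27 of 36 alternatives other than a 2-fold minimum kept it. The E2 24 h arrays, at 32.83% and 28.61%, lay below vehicle without passing the test (-0.68 ± 0.35, adjusted p = 0.1). BPA 24 h arrays at 85.63%, 41.42% and 95.79% and HPTE 24 h arrays at 70.22%, 65.65% and 47.68% overlapped the vehicle arrays.

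Prelp is a relative of lumican and fibromodulin that has few or no glycosaminoglycan chains and binds basement membrane proteoglycans. Among the brightest probes of the 8 genes, that of Prelp showed the largest change from vehicle. Vehicle arrays were at 3298%, 2843% and 2859%. E2 arrays were at 1913%, 1953% and 2128% after 2 h and at 746% and 558.4% after 24 h. BPA 2 h arrays lay at 1929%, 1558% and 1980%, and HPTE 2 h arrays at 1708%, 2010% and 1974%. All 9 arrays at 2 h and all arrays at 24 h, those of BPA and HPTE included, lay below every vehicle array. The changes at 2 h were -0.58 ± 0.15 (E2), -0.72 ± 0.15 (BPA) and -0.66 ± 0.15 (HPTE), with adjusted p of 0.00782, 0.000868 and 0.00164. With scaling to spike-in probes none of these 3 calls held, at -0.66, -0.64 and -0.41 (adjusted p = 0.209, 0.14 and 0.362), and without scaling the HPTE call was lost (adjusted p = 0.0633). At 24 h the change was -2.21 ± 0.16 after E2, or 4.64-fold (adjusted p = 3.24e-08). It was -0.68 ± 0.15 after HPTE, at 2314%, 1795% and 1581% (adjusted p = 0.00273). After BPA it was -0.30 ± 0.15, at 2558%, 2149% and 2592%, which did not pass (adjusted p = 0.194).

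The other Prelp probe gave the same calls. Its vehicle arrays were at 12.06%, 12.83% and 13.9% and its E2 24 h arrays at 5.02% and 3.617%, a change of -1.60 ± 0.16 (adjusted p = 5.57e-07). At 2 h it changed by -0.70, -0.69 and -0.72 after E2, BPA and HPTE (SE 0.14 each, adjusted p from 0.000679 to 0.00178). Within slides the brighter probe differed from the vehicle array of its slide by -0.76 to -0.53 at 2 h and by -2.36 to -0.16 at 24 h. Its side was fixed by the lack of overlap. With E2 2 h replicate 1 as the single E2 2 h array, the replicate without pancreatic transcripts, Prelp changed by -0.65 (adjusted p = 0.0732), in a fit chosen after seeing the data that takes the spread from the other groups. Adipocyte markers summed to 1797% to 2263% at E2 24 h against 4425% to 10240% in vehicle. Of these, 5 of 8 were lower, close to the 63.8% of all probes called there in either direction. The summed stromal markers, at 15550% to 16570%, overlapped the vehicle range there, with 2 of 9 higher and 3 lower. The summed mesothelial markers were lower there, at 468.6% to 556.4% against 1035% to 1255%. Of these, Msln and Wt1 were called lower, and Upk3b, Lrrn4 and Upk1b were not (limma, adjusted p = 0.211, 0.3 and 0.0926). Epithelial markers were higher, at 23910% to 26690% against 9524% to 11150%, and so were smooth muscle markers, at 65500% to 70540% against 41640% to 46630%. The part of these cell types in the falls of Dcn and Prelp was not tested.

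Omd and Ogn, keratan sulfate proteoglycans that were first described in bone, and Aspn, which lacks attachment sites for such chains and binds collagen and TGF-β, have genes side by side on chromosome 13. Omd was higher at 2 h with every compound. Vehicle arrays were at 8.693%, 7.515% and 5.92%, and those at 2 h were at 19.51%, 16.95% and 15.94% (E2), 13.15%, 10.76% and 13.65% (BPA) and 9.866%, 9.565% and 11.38% (HPTE). All 9 arrays lay above vehicle. Omd rose by 1.26 ± 0.17 after E2, or 2.39-fold (adjusted p = 7.43e-05), by 0.77 ± 0.17 after BPA (adjusted p = 0.00183) and by 0.49 ± 0.17 after HPTE (adjusted p = 0.0293). The HPTE call was kept in 30 of 36 alternatives other than a 2-fold minimum. It was lost with scaling to spike-in probes. Leaving out vehicle replicate 2 or 3 or HPTE 2 h replicate 1 or 3 also lost it (adjusted p from 0.0509 to 0.142). Within slides Omd was above vehicle by 0.14 to 0.96 at 2 h, a side fixed by the lack of overlap. At 24 h the 8 arrays ran from 5.467% to 10.43% and overlapped vehicle in each group, with differences of 0.25, -0.11 and -0.20 (E2, BPA, HPTE; adjusted p from 0.283 to 0.729). Under quantile normalization the E2 24 h difference was 0.67 and was called (adjusted p = 0.00782).

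Ogn was at 1291%, 1162% and 1320% on the vehicle arrays. The HPTE 24 h arrays, at 988.5%, 876.9% and 689.2%, were all lower (-0.58 ± 0.20, adjusted p = 0.0351), a call lost without any 1 of the vehicle arrays or without HPTE 24 h replicate 2 or 3 (adjusted p from 0.0521 to 0.143), and with slide as a fixed block (adjusted p = 0.232). Scaling to spike-in probes lost it as well, and 27 of 36 alternatives other than a 2-fold minimum kept it. The BPA 24 h arrays, at 1040%, 953.6% and 910.4%, also lay below vehicle, but the difference did not pass (-0.38 ± 0.20, adjusted p = 0.23). The E2 24 h arrays, at 1671% and 1519%, lay above it (0.34 ± 0.22, adjusted p = 0.192).

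Aspn was called in none of the 15 comparisons. Its vehicle arrays were at 61.28% to 101.1% and the other 17 arrays ran from 47.35% to 122.7%, and every group overlapped vehicle. Differences from vehicle lay between -0.32 and 0.17 with SE of 0.30 to 0.34, so changes of that order could not be resolved with 2 or 3 arrays a group. The unadjusted p was above 0.05 in all 15 comparisons.

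**Figure D3:**
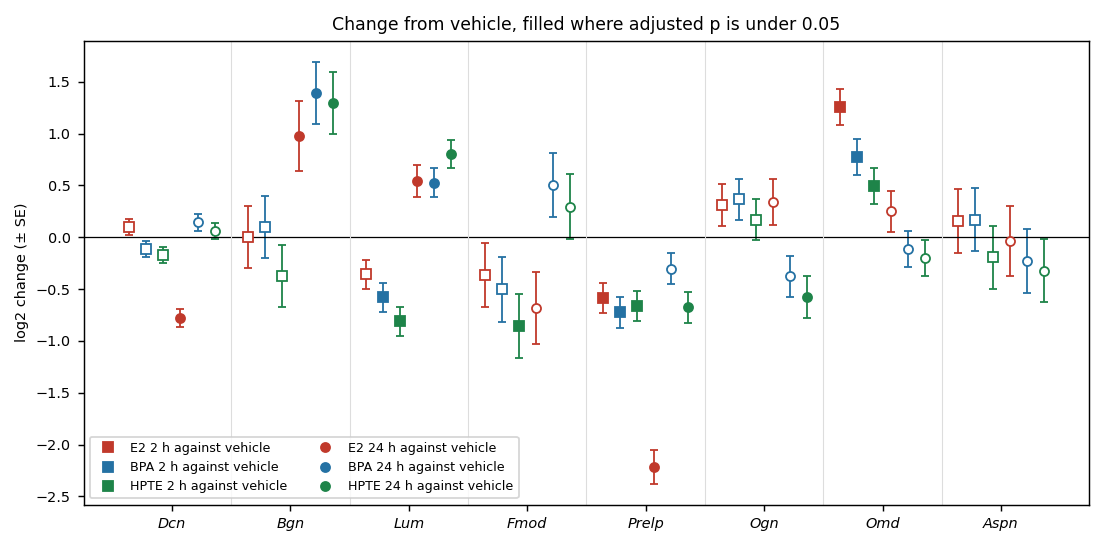
Change of each gene from vehicle (log2 difference of group means, brightest probe, bars ± SE) for 3 compounds at 2 h (squares) and 24 h (circles), filled where the adjusted p was under 0.05. Prelp at E2 24 h (-2.21) is the lowest point, Bgn at BPA 24 h (1.39) the highest, and Lum lies below 0 at 2 h and above 0 at 24 h.

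Calls against vehicle were counted over the 8 genes and set beside the share of all probes called. With 8 genes a single call moves the share by a wide step, so the counts are not read as a trait of the family. At 2 h, 2 of 8 were called after E2 (1 higher, 1 lower), where 28.1% of all probes were called, 3 of 8 after BPA (1 higher, 2 lower), where 49.4% were called, and 4 of 8 after HPTE (1 higher, 3 lower), where 48.1% were called. At 24 h, 4 of 8 were called after E2 (2 higher, 2 lower), where 63.8% were called, 2 of 8 after BPA (both higher), where 13.1% were called, and 4 of 8 after HPTE (2 higher, 2 lower), where 34% were called. Both calls at BPA 24 h were lost with scaling to spike-in probes and with slide as a fixed block. The median change of the 8 genes lay between -0.28 and 0.11 in these 6 comparisons, and that of all probes between -0.15 and -0.03. No direction was common to the 8 genes in any of the 6.

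The treated groups were then compared between times, which involves no vehicle array. E2 24 h differed from E2 2 h in 5 of 8 genes, where 56% of all probes were called. Bgn and Lum were higher at 24 h (0.98 ± 0.33 and 0.90 ± 0.15), and Dcn, Omd and Prelp were lower (-0.88 ± 0.09, -1.01 ± 0.19 and -1.63 ± 0.16). The clone probe of Dcn went the other way, by 1.54 ± 0.50 (adjusted p = 0.0155, and 0.0944 without E2 24 h replicate 2), and the mean of both Dcn probes gave 0.33 (adjusted p = 0.323), so the direction for Dcn rests on the probe. The Bgn call was lost without E2 2 h replicate 1 (adjusted p = 0.0507) or E2 24 h replicate 2 (adjusted p = 0.171). For BPA 7 of 8 were called, where 48.4% of all probes were. Bgn, Dcn, Fmod, Lum and Prelp were higher at 24 h, led by Bgn (1.30 ± 0.30) and Lum (1.10 ± 0.14), and Ogn and Omd were lower (-0.75 ± 0.20 and -0.89 ± 0.17). Without BPA 24 h replicate 1 the BPA count was 4, since the calls of Dcn, Fmod and Prelp were lost (adjusted p from 0.0584 to 0.0859). Those of Fmod and Prelp were also lost without BPA 24 h replicate 3 or BPA 2 h replicate 2 (adjusted p from 0.0745 to 0.132), and that of Dcn without BPA 2 h replicate 1 (adjusted p = 0.0746). For HPTE 6 of 8 were called, where 54.1% of all probes were. Bgn, Lum and Fmod were higher (1.67 ± 0.30, 1.61 ± 0.14 and 1.15 ± 0.31), as was Dcn by 0.23 ± 0.08, and Ogn and Omd were lower (-0.75 ± 0.20 and -0.69 ± 0.17). The Dcn value was -0.01 with normexp and quantile normalization, -0.03 without scaling and -0.32 with scaling to spike-in probes, so that its direction rests on the scaling, and its call was lost without HPTE 2 h replicate 3 or any 1 of the HPTE 24 h arrays (adjusted p from 0.0505 to 0.076). With slide as a fixed block, 3 of 8 were called for BPA and 3 of 8 for HPTE. The calls lost were Bgn, Fmod, Ogn and Prelp for BPA (adjusted p from 0.0591 to 0.314), Dcn, Fmod and Ogn for HPTE (adjusted p from 0.0916 to 0.407) and Bgn for E2 (adjusted p = 0.238). Lum was higher and Omd lower at 24 h than at 2 h with each of the 3 compounds in both fits. Prelp was lower at 24 h after E2 and higher after BPA, and differed by -0.02 ± 0.15 after HPTE (adjusted p = 0.941).

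**Figure D4:**
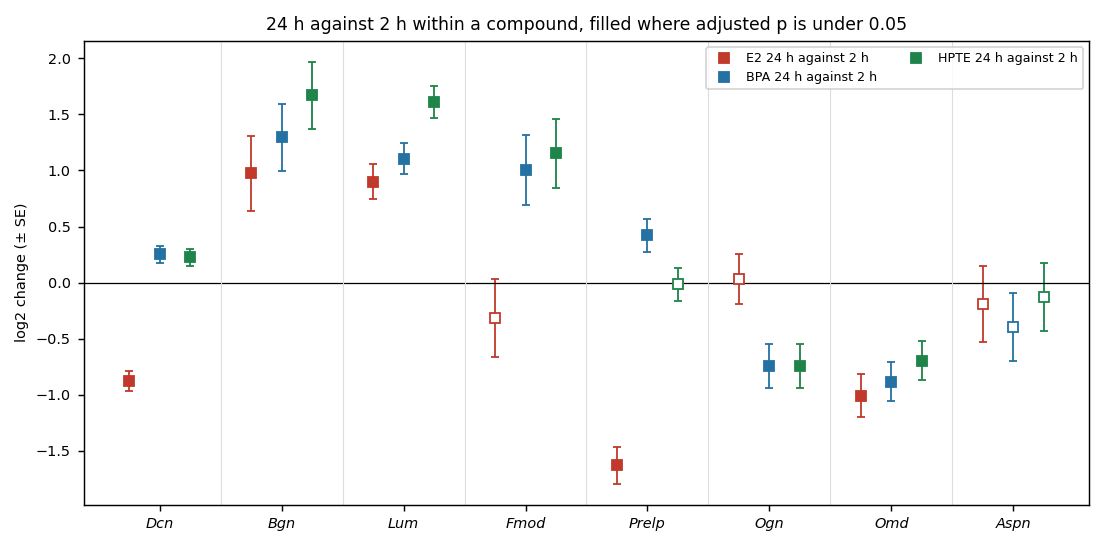
Difference between 24 h and 2 h within each compound (log2, brightest probe, bars ± SE), filled where the adjusted p was under 0.05. Bgn and Lum lie above 0 and Omd below 0 for all 3 compounds, while Dcn and Prelp lie below 0 for E2 (-0.88 and -1.63) and not for BPA.

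BPA and HPTE were given at equal doses and times, and no difference between them passed the test in any of the 8 genes. At 2 h 0 of 8 were called, where 0.437% of all probes were called, and at 24 h 0 of 8, where 4.08% were. The unadjusted limma p was under 0.05 for Prelp at 24 h, where HPTE was lower by 0.37 (interval from -0.69 to -0.06, adjusted p = 0.161), and for no other gene at either time. With array weights this Prelp difference was called (-0.48, adjusted p = 0.0193). The intervals at 2 h ran from -1.11 to 0.16 for Bgn, from -1.02 to 0.31 for Fmod and from -1.01 to 0.29 for Aspn, and so include differences of about 2-fold. They were narrowest for Dcn, from -0.22 to 0.11 at 2 h and from -0.25 to 0.08 at 24 h. The clone probe of Dcn differed by -1.93 ± 0.44 at 2 h without passing (adjusted p = 0.0738), and was called without BPA 2 h replicate 3 (-1.20, adjusted p = 0.0284) or BPA 2 h replicate 2 (-2.44, adjusted p = 0.0125).

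E2 was given at another dose, and its values are set beside those of BPA and HPTE with that difference in view. At 2 h, BPA against E2 gave 0 calls of 8, where 19% of all probes were called, with unadjusted p under 0.05 for Dcn (-0.21 ± 0.08) and Omd (-0.48 ± 0.17). HPTE against E2 gave 3, Dcn (-0.27 ± 0.08), Lum (-0.45 ± 0.14) and Omd (-0.77 ± 0.17), all lower after HPTE, where 16.6% of all probes were called. The Dcn difference was 0.02 with quantile normalization, 0.11 without scaling and 0.06 with scaling to spike-in probes, so its direction rests on the scaling. It was no longer called without E2 2 h replicate 1 or 2 or any 1 of the HPTE 2 h arrays (adjusted p from 0.0624 to 0.114), nor Lum without E2 2 h replicate 1 or 2 or HPTE 2 h replicate 1 or 2 (adjusted p from 0.07 to 0.15). At 24 h the same 4 genes were called for BPA and for HPTE against the shared E2 24 h arrays, where 57.8% and 48.8% of all probes were called. Prelp was higher than with E2 by 1.91 ± 0.16 (BPA, 3.76-fold) and 1.54 ± 0.16 (HPTE, 2.90-fold), Dcn by 0.92 ± 0.09 and 0.84 ± 0.09, and Fmod by 1.19 ± 0.35 and 0.98 ± 0.35. Ogn was lower than with E2, with differences of -0.72 ± 0.22 and -0.92 ± 0.22. Neither Bgn nor Lum passed in these comparisons, with intervals for Lum from -0.35 to 0.31 (BPA) and from -0.07 to 0.59 (HPTE). The Fmod call was lost without E2 24 h replicate 3 for BPA (adjusted p = 0.0633), and for HPTE without either E2 24 h array or without HPTE 24 h replicate 1 or 2 (adjusted p from 0.0724 to 0.15). The Ogn call for BPA was lost without E2 24 h replicate 2 (adjusted p = 0.0746).

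Members that lie side by side in the genome did not all share a pattern over the 7 group means. Dcn and Lum, whose probes start 54977 bases apart on chromosome 10 with no protein-coding gene between them in the gene table, had r = -0.10. Aspn, Omd and Ogn, with probe starts 25368 and 31702 bases apart, had r of 0.79 (Aspn and Omd), 0.77 (Omd and Ogn) and 0.82 (Aspn and Ogn). Prelp and Fmod, 137064 bases apart on chromosome 1, had r = 0.52. The highest values among all pairs were 0.93 for Bgn and Lum and 0.92 for Dcn and Prelp, which lie on different chromosomes. These are descriptions over 7 points that share the same arrays, and in the residuals within groups (20 arrays) Dcn and Prelp had r = -0.01 and Bgn and Lum 0.68.

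The genes most like each member over the 7 group means were Ccpg1, Pdpn and Tcp11l2 for Dcn (r from 0.995 to 0.996), Dpp7, Slc26a4 and Slc2a9 for Bgn (0.983 to 0.992) and Naglu, Nagk and Fkbp1b for Lum (0.994 to 0.996). They were Abca9, Shpk and Pde1b for Fmod (0.990 to 0.994), Dynlt1, Maml2 and Nfat5 for Prelp (0.997 to 0.999) and Ywhaz, Heatr3 and Cul5 for Ogn (0.979 to 0.987). For Omd they were Arl4c, Gja1 and Mras (0.9754 to 0.9888), and for Aspn Pard6b, Iqgap2 and Ptcd3 (0.961 to 0.977). With 7 points such values are common: 865 genes had r over 0.9 with Dcn, 988 with Prelp and 9 with Aspn.

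The promoter table of RefSeq (GRCm38.p6, 250 bases before to 50 after each start) held 6 of the 8 genes, all but Dcn and Lum. Motifs were searched on both strands, and the share of all 32851 promoters holding each is given for reference. The full estrogen response element (GGTCANNNTGACC) was in none of the 6 and in 0.07% of all promoters, and the AP-1 element (TGANTCA) in none of the 6 and in 7.81%. The shorter GGTCA, which is part of the full element, was in Omd and Prelp and in 40.5% of all promoters. The GC box (GGGCGG) was in Bgn and in 35.7%, and the TATA box (TATAAA) was in Aspn and Ogn and in 13.6%. The 250 bases before the start are shown for Omd, which rose at 2 h, and Prelp, which fell, with GGTCA in capitals.
Omd, chr13:49582212-49582461, plus strand, GRCm38.p6: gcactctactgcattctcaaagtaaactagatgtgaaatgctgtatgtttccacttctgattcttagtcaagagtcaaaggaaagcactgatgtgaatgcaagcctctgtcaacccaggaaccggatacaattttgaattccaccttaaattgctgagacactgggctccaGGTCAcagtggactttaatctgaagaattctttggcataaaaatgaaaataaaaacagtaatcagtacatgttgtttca
Prelp, chr1:133921402-133921651, minus strand, GRCm38.p6: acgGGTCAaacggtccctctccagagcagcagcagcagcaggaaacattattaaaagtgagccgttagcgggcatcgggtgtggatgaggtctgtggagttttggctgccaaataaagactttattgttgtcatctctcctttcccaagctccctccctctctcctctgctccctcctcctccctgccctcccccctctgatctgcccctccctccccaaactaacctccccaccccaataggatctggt
A match says that the letters are present, and no binding was measured here.

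The genes that work with these proteins were read from fixed lists, each gene by its brightest probe, and the background shares given above for each comparison hold here too. Of 24 genes of collagen fibril assembly (fibrillar collagens and their processing and cross-linking enzymes), 19 were higher and 0 lower at E2 24 h, 15 higher and 0 lower at HPTE 24 h and 4 higher and 0 lower at BPA 24 h. The median change of the list was 1.19, 0.55 and 0.34, beside -0.15, -0.06 and -0.03 for all probes. Scaling to spike-in probes left 16, 0 and 0 of them called, and array weights gave 13 at BPA 24 h. Col1a1, the main chain of type I collagen, rose by 2.09 ± 0.42 after E2 and 1.5 ± 0.37 after HPTE at 24 h, and Col1a2, its partner chain, by 0.96 ± 0.23 after BPA. Col5a1, which starts fibril formation (1.82 ± 0.16), and Pcolce, which speeds removal of the collagen propeptide (1.68 ± 0.25), were the next largest after E2. At 2 h the list was split, with 8 higher and 6 lower after HPTE and 6 higher and 4 lower after BPA. P4ha2, a prolyl hydroxylase of collagen, rose by 3.37 ± 0.41 and 2.45 ± 0.41, Plod1, a lysyl hydroxylase, by 1.43 ± 0.20 and 1.28 ± 0.20, and the cross-linking enzyme Lox fell by 1.24 and 0.88 (SE 0.18 each). After E2 at 2 h 3 were higher and 1 lower, led by Plod2 (0.97 ± 0.13). Scaling to spike-in probes left 4 (HPTE), 3 (BPA) and 0 (E2) called at 2 h in all.

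Enzymes that build and sulfate the glycosaminoglycan chains (21 of 27 tested) moved in both directions. At 2 h, 4 were higher and 3 lower after E2, 7 and 4 after BPA and 7 and 6 after HPTE. Chsy1, which polymerizes chondroitin, rose by 1.60 ± 0.14 (E2) and 1.37 ± 0.14 (BPA), and Chst11, a chondroitin 4-sulfotransferase, by 0.71 ± 0.11 (E2), 1.73 ± 0.11 (BPA) and 1.54 ± 0.11 (HPTE). Chst1, a keratan sulfate sulfotransferase, fell by 0.86 at 2 h and by 1.21 at 24 h of E2 (SE 0.15 and 0.17). At 24 h, 6 were higher and 6 lower after E2, 3 and 3 after HPTE and 0 and 1 after BPA. Scaling to spike-in probes left 2, 5 and 6 called in all at 2 h (E2, BPA, HPTE) and 5, 0 and 1 at 24 h.

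Of 17 genes of the TGF-β axis, which decorin, biglycan and asporin touch by binding the ligand, 11 were lower and 2 higher at E2 24 h, and 3 in all were called with scaling to spike-in probes. Ltbp2 and Ltbp1, latent TGF-β binding proteins, fell by 1.68 ± 0.33 and 1.10 ± 0.23, and the ligand Tgfb2 by 0.92 ± 0.21. At 24 h, BPA and HPTE each had 2 higher (Eng and Acvrl1) and 1 lower, the inhibitory Smad7 (-0.68 ± 0.17 and -0.97 ± 0.17). At 2 h, 3 were higher and 0 lower after E2, 5 and 2 after BPA and 6 and 0 after HPTE, and Eng, a co-receptor, rose with each (0.72, 0.99 and 1.13, SE 0.10 each). With scaling to spike-in probes 0, 2 and 4 were called at 2 h.

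Of 8 cell-surface proteins that bind decorin or biglycan, 5 were lower and 0 higher at E2 24 h, among them Igf1r (-1.78 ± 0.09), Tlr4 (-1.09 ± 0.20) and Egfr (-0.46 ± 0.08). This count is close to the share of all probes called there in either direction, 63.8%. At 2 h Egfr was higher after BPA (0.32 ± 0.08) and HPTE (0.37 ± 0.08). Tlr4 was lower at 2 h with each compound (-0.74, -1.0 and -1.52 for E2, BPA and HPTE, SE 0.18 each), and 0 of 8 were called at BPA 24 h. With scaling to spike-in probes, 2 were called at E2 24 h in place of 5 and 0 at HPTE 24 h in place of 2. Endothelial markers were lower at E2 24 h as well, in 5 of 8, likewise close to the 63.8% of all probes called. Of the other family genes (9 of 10 tested), none was higher in any group against vehicle. Without E2 24 h replicate 2, 2 were called at E2 24 h in place of 4, and with quantile normalization 0 at BPA 2 h in place of 2. Kera, the keratan sulfate proteoglycan of the cornea whose gene follows Lum, fell by 2.50 ± 0.51 after E2 and 2.90 ± 0.51 after HPTE at 2 h. Epyc, which follows Kera, fell by 1.51, 1.28 and 2.01 at 2 h and by 1.54 at E2 24 h. Ecm2, a neighbour of Aspn, fell by 1.52 ± 0.37 at E2 24 h. Of 15 tested core proteins of other proteoglycan families, 4 were higher and 6 lower at E2 24 h, with changes of 2.27 ± 0.20 for Vcan (versican, a large chondroitin sulfate proteoglycan) and -2.61 ± 0.20 for Gpc3 (a glypican of the cell surface). HPTE at 24 h gave changes in the same genes of 0.80 ± 0.18 and -0.65 ± 0.18, and at BPA 24 h 1 was higher and 0 lower. Scaling to spike-in probes left 5 of these core proteins called at E2 24 h in place of 10, and 1 at HPTE 24 h in place of 4.

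**Figure D5:**
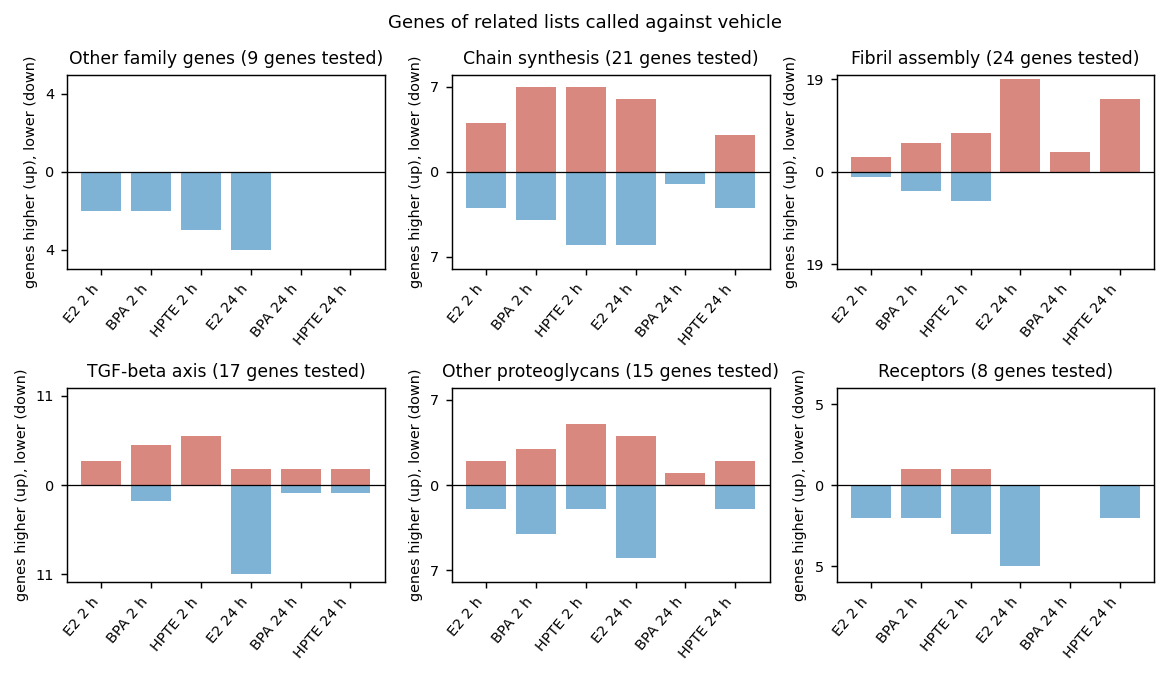
Number of genes of 6 related lists called higher (red, up) or lower (blue, down) than vehicle, for 3 compounds at 2 h and 24 h, at adjusted p under 0.05. Fibril assembly genes are called higher in 19 (E2) and 15 (HPTE) of 24 at 24 h with none lower, and TGF-β axis genes lower in 11 of 17 at E2 24 h.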

How the data were processed

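Uterine RNA (500 ng of total RNA a sample) was hybridised to 20 one-colour Agilent arrays, 1 uterus an array. The 6 slides were inferred from scan time, as arrays with the same scan time were taken to lie on 1 slide. The deposited scanner files hold, per the labels from Agilent Feature Extraction 9.5, a processed intensity for each of 45018 spots, background subtracted by the authors' scanner software and not scaled between arrays, with flags for outlier, saturated and dim spots. The deposited value table holds the same intensities. Nothing in the labels says more than that samples are separate uteri, and p-values measure the spread between these samples.

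Outlier spots (46 to 134 an array) were left out, spots of a probe were averaged, and from each log2 intensity the array's own 75th percentile (1320 to 2046 before log2) was subtracted. A probe was tested if some group had it well above background on all its arrays and at most 2 arrays lacked it (32460 of 41174). By array, 72.7% to 81.4% of probes passed that flag, and the number of arrays limits the precision. The 15 comparisons came from 1 limma 3.58.1 model (R 4.3.3) of 7 group means, two-sided, with Benjamini-Hochberg adjustment over all tested probes within a comparison and a threshold of 0.05. Intervals are 95%. Scripts were tested on simulated data. The 8 genes and the gene lists were chosen with earlier results of these data known. The probe rule used names and mean intensity and no comparison. Each gene of a list was read by its brightest probe, and up to 3 called genes a list and comparison were named, those with the largest change and no overlap of arrays. For likeness, the 3 genes of highest r over group means were named. RefSeq accessions were matched to the GRCm38.p6 gene table for 22944 of 25510. Alternatives covered scaling, background correction, filter, slide, replicate block, array weights, fit and each array left out.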

Additional observations from a re-analysis of the deposited data

Results flagged for a closer look

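The 24 h and 2 h arrays of a compound differed past the threshold in 18 of 24 gene and compound pairs, by the test of that difference itself (limma, adjusted p under 0.05). Of all probes, 56% (E2), 48.4% (BPA) and 54.1% (HPTE) were called in the same comparisons. For E2 the differences (24 h minus 2 h, log2) were 0.98 for Bgn, -0.88 for Dcn, 0.90 for Lum, -1.01 for Omd and -1.63 for Prelp. For BPA they were 1.30 for Bgn, 0.25 for Dcn, 1.01 for Fmod, 1.10 for Lum, -0.75 for Ogn, -0.89 for Omd and 0.42 for Prelp. For HPTE they were 1.67 for Bgn, 0.23 for Dcn, 1.15 for Fmod, 1.61 for Lum, -0.75 for Ogn and -0.69 for Omd. As given above, the direction for Dcn rested on the probe for E2 and on the scaling for HPTE.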

How the results depend on the processing

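Of 48 called changes of the 8 genes, 17 kept direction and call under all 36 alternatives other than a 2-fold minimum, among them Dcn and Prelp at E2 24 h and Omd at 2 h of E2 and BPA. The Dcn difference of HPTE from E2 at 2 h turned to 0.0225 (quantile), 0.11 (no scaling) and 0.0615 (spike-in scaling). The Dcn difference between HPTE 24 h and 2 h turned to -0.0095 (normexp with quantile), -0.0329 (no scaling) and -0.32 (spike-in scaling). With the mean of both Dcn probes, the change was -1.89 at E2 2 h and 0.33 between E2 24 h and 2 h. The cause was not tested.

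Counts of the 8 genes called moved as follows. Quantile normalization gave 1 at BPA 24 h and 1 for HPTE against E2 at 2 h, and normexp with quantile gave 1 for BPA and 1 for HPTE against E2 at 2 h. Without scaling there were 2 at HPTE 2 h, 1 at BPA 24 h, 4 for BPA between times and 0 for HPTE against E2 at 2 h. Scaling to 8 spike-in probes gave 1, 1 and 0 at 2 h (E2, BPA, HPTE), 2, 0 and 1 at 24 h, 4 for BPA between times, 0 for HPTE against E2 at 2 h, and 2 and 2 for BPA and HPTE against E2 at 24 h. Slide as a fixed block gave 0 at BPA 24 h, 2 at HPTE 24 h, 3 and 3 for BPA and HPTE between times and 1 for HPTE against E2 at 2 h. Without the slide scanned on the later day there was 1 at BPA 24 h and 1 for HPTE against E2 at 2 h. Array weights gave 1 for HPTE against BPA at 24 h, a robust fit with trend 1 for BPA against E2 at 2 h, and the mean of probes 1 at BPA 24 h. Fits of only the groups compared gave 0 at BPA 24 h, 4 for BPA between times and 1 for HPTE against E2 at 2 h. A 2-fold minimum left 1, 0 and 0 at 2 h, 1, 1 and 1 at 24 h, 2, 3 and 3 between times, 0 for HPTE against E2 at 2 h, and 2 and 1 for BPA and HPTE against E2 at 24 h. With E2 2 h replicate 1 as its single array, chosen after seeing the data and assumed to vary like the other groups, there was 1 at E2 2 h and 1 for HPTE against E2 at 2 h.

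Leaving out 1 array gave 2 to 3 (E2), 3 to 3 (BPA) and 2 to 4 (HPTE) at 2 h, 3 to 5, 1 to 2 and 3 to 4 at 24 h, and 4 to 5, 4 to 7 and 5 to 6 between times. It gave 0 to 2 and 1 to 3 for BPA and HPTE against E2 at 2 h, 3 to 4 and 3 to 4 at 24 h, and 0 to 0 for HPTE against BPA at both times.

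With replicate number as a block, 1 gene was called for BPA against E2 at 2 h in place of 0, and no other count moved by over 1.5 times. The numbers did not pair the samples, since the median correlation of deviations was -0.05 over 57 pairs with the same number and 12 of them were over 0.1. Arrays of the same slide shared more, with a median of 0.107 over 25 pairs, 13 of them over 0.1. Pairs from different slides had a median of -0.033 over 146 pairs, 36 of them over 0.1. The main fit held no slide term, and with slide as a random block the correlation within slides was 0.019.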
